A study of Mus musculus with 24 samples.

Results

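The costimulation and maturation genes of dendritic cells (DCs) were taken as 10 named genes: Cd80, Cd86, Icosl, Cd274, Pdcd1lg2, Tnfsf4, Cd40, Cd83, Ccr7 and Fscn1. Every probe set whose only gene symbol was one of these counted as a member, which gave 19 of the 22626 probe sets tested and all 10 genes, out of 12393 genes with such a probe set. Membership went by name and not by a measured value, though the names were chosen with earlier results of these data known. RNA of splenic CD11c+ DCs was measured on 24 Affymetrix Mouse430A 2.0 arrays, at day 14 of life of BALB/c pups. Asthma-at-risk pups were born to mothers sensitized with ovalbumin (OVA) and alum and then exposed to OVA aerosols, and normal pups to control mothers, which had received PBS by the study's methods. Stimulated pups had 1 intraperitoneal injection of 5 µg of OVA with 1 mg of alum, on day 3 by the sample labels and on day 4 by the study's methods, and no OVA aerosol. Naïve pups received no allergen. Set 1 held 4 stimulated at-risk, 4 stimulated normal, 4 naïve at-risk and 3 naïve normal arrays. Set 2, whose RNA was NuGEN amplified, held 5 stimulated at-risk and 4 stimulated normal arrays. The study's methods call the arrays of a group biological replicates. Neither the labels nor the methods say how many pups were pooled for an array.

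A T cell that meets its antigen on a DC needs further signals to respond, and DCs deliver these as surface proteins. CD80 and CD86 bind CD28, which activates the T cell, and CTLA-4, which restrains it. ICOS ligand and OX40 ligand (the product of Tnfsf4) sustain activated helper T cells, while PD-L1 (Cd274) and PD-L2 (Pdcd1lg2) restrain T cells through PD-1. Engagement of CD40 by its ligand on T cells matures the DC further. A maturing DC raises CD83, moves to the T cell zones with the chemokine receptor CCR7, and forms its long processes with the actin-bundling protein fascin (Fscn1). OX40 ligand on DCs is known for promoting Th2 responses in allergic airway models.

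The signal is given as log2 of the deposited intensity, and differences are log2 fold changes with their standard error (SE), at-risk minus normal or stimulated minus naïve. A probe set was called where limma gave a p, adjusted by Benjamini and Hochberg over all probe sets, of at most 0.05, and the difference was at least 0.32 in size. The defining DC genes were high on all arrays, with Itgax, which encodes CD11c, from 12.63 to 13.10, and the summed signal of 16 markers of conventional DCs ran from 94296 to 105793. Array medians ran from 272.1 to 297.8 on the linear scale. The naïve normal array AF79 stood apart from its group, with r = 0.9908 across probe sets against the mean of the other arrays of the group, where the remaining 23 arrays had 0.9932 to 0.9988. The lowest of these was AF123, a stimulated at-risk array of Set 2. Results that rest on either array are given with and without it. In RNA of a cell preparation, fewer cells of a type and less RNA per cell cannot be told apart.

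Most of the family differed little. In naïve DCs none of the 10 genes was called between at-risk and normal pups, where 0.340% of all probe sets were called in either direction. An unadjusted p under 0.05 was reached by 1 of the 10 and by 1732 of all 12393 genes. In stimulated DCs of both sets none was called, against 1.73% of all probe sets, and 2 had an unadjusted p under 0.05, as did 2263 of the 12393. The 95% intervals bound these differences with all arrays. All 10 genes lay within 1.5-fold either way in naïve DCs, where 11168 of the 12393 genes and 87.4% of all probe sets did. In stimulated DCs of both sets all 10 did, where 11662 of the 12393 genes and 94.0% of all probe sets did. In Set 2 alone 9 of the 10 did, beside 10362 of the 12393 genes, as Cd274 had an interval of -0.811 to -0.175. Of all 19 member probe sets, 18 lay within 1.5-fold in naïve DCs. Without AF79, Ccr7 was called lower in naïve DCs, where 0.208% of all probe sets were called. Its difference was then -0.45, with an interval of -0.60 to -0.30 that passes 1.5-fold. Allergen stimulation gave no call among the 10 genes in at-risk pups, against 7.88% of all probe sets, with 2 of the 10 and 2590 of the 12393 at an unadjusted p under 0.05. In normal pups it gave 2 calls, Ccr7 and Fscn1, both lower, where 11.5% of all probe sets were called and 5.76% were called lower. The comparisons of Set 1 share arrays with each other, so their counts are not independent.

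**Figure D1:**
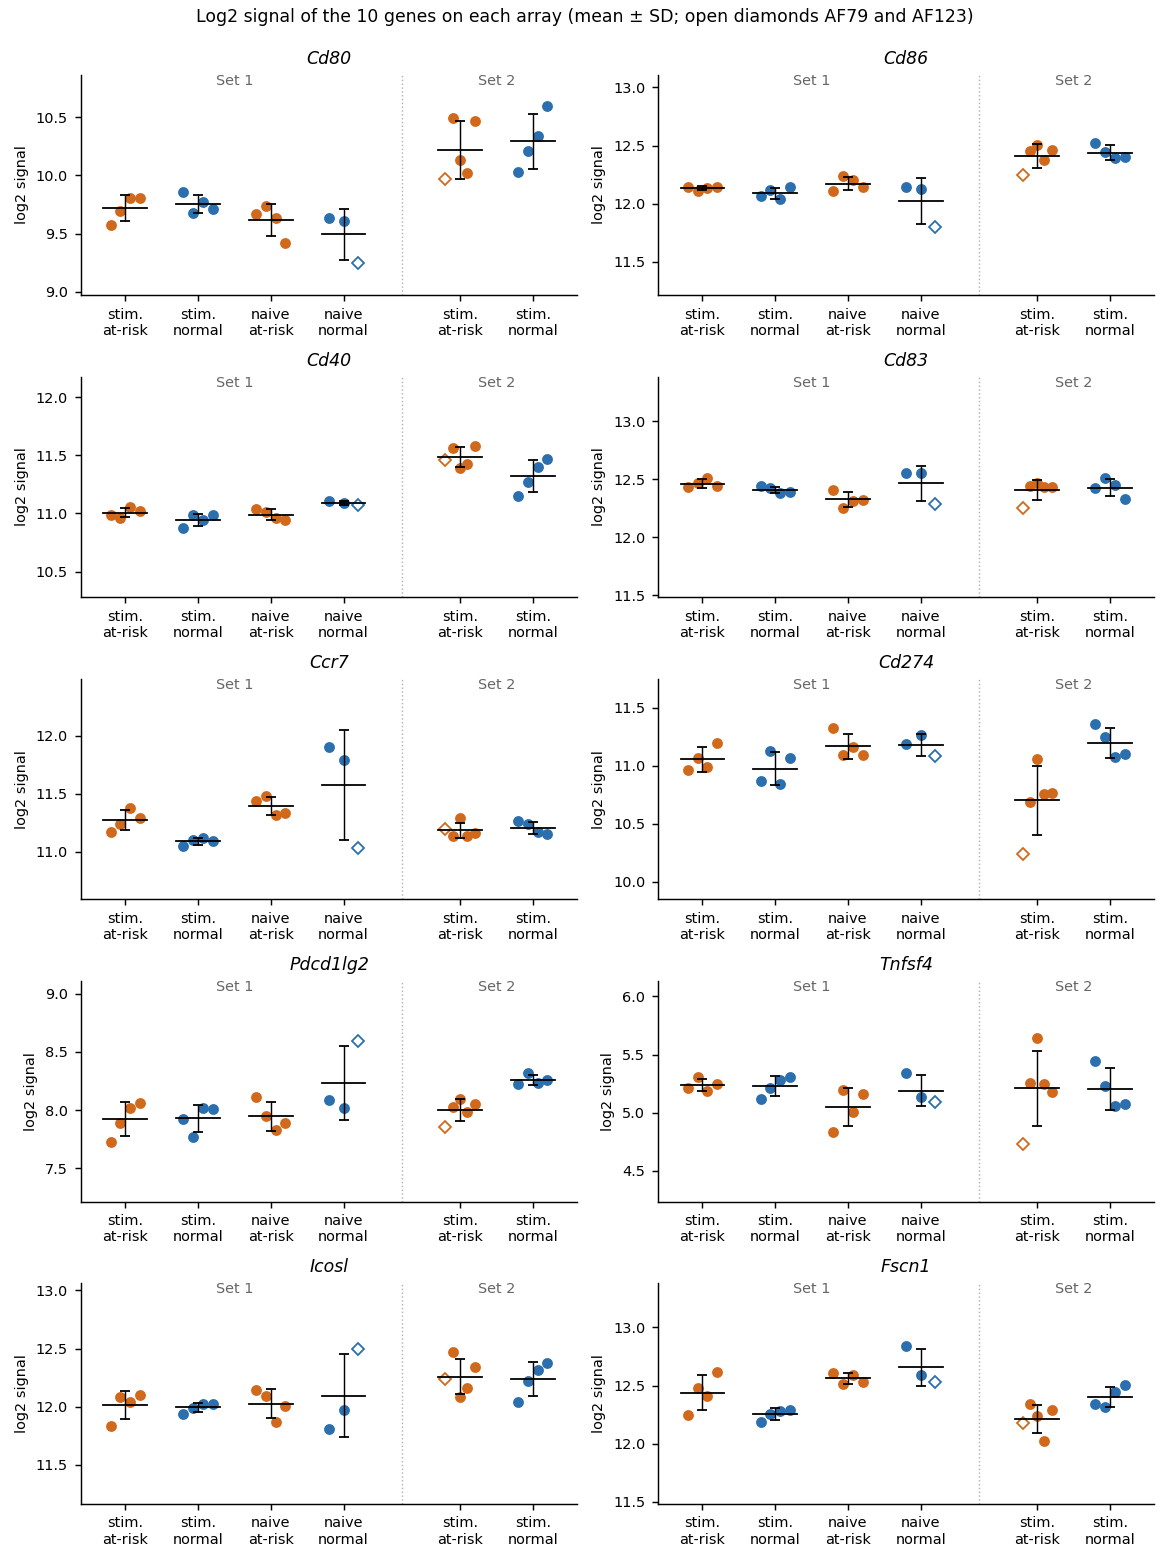
Log2 signal of each of the 10 genes on each array, by the probe set with the highest mean (orange for at-risk, blue for normal pups, open diamonds for AF79 and AF123, bars for mean ± SD). Each axis spans the same number of log2 units. The Ccr7 panel shows the naïve normal arrays at 11.90, 11.79 and 11.03, and the Cd274 panel the 5 stimulated at-risk arrays of Set 2 between 10.24 and 11.06, all below the normal arrays.

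Cd80, which encodes a ligand of CD28 and CTLA-4, lay above naïve levels on every stimulated array of normal pups. In at-risk pups stimulated and naïve arrays overlapped, and the difference was 0.10 (SE 0.10). In normal pups the signal was 9.86, 9.68, 9.77 and 9.71 on the stimulated normal arrays, against 9.63, 9.60 and 9.24 on the naïve normal arrays. The difference of 0.26 (SE 0.10) had an adjusted p of 0.107 and was not called, and without AF79, the lowest naïve array, it was 0.14 (SE 0.09). The other 3 probe sets of Cd80 had differences of -0.16, -0.12 and -0.15 in this comparison, opposite in sign and also not called.

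Between at-risk and normal pups Cd80 showed no called difference. It averaged 9.62 ± 0.14 in naïve at-risk (SD, n = 4) and 9.49 ± 0.22 in naïve normal DCs (SD, n = 3), a difference of 0.12 with AF79 and of -0.004 without it. After stimulation it averaged 9.72 ± 0.11 in at-risk and 9.75 ± 0.08 in normal DCs of Set 1 (SD, n = 4 each). In Set 2 the means were 10.22 ± 0.25 in at-risk (SD, n = 5) and 10.29 ± 0.24 in normal DCs (SD, n = 4), and the ranges overlapped in all of these pairs. Levels were not compared between the sets, which were preprocessed separately.

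Cd86, the other ligand of CD28 and CTLA-4, had an SD from 0.015 among the stimulated at-risk arrays of Set 1 to 0.195 among the naïve normal arrays. In stimulated DCs it differed by 0.005 (SE 0.04) between at-risk and normal pups over both sets, with a 95% interval of -0.08 to 0.09, and by 0.04 in Set 1 and -0.03 in Set 2. In naïve DCs the difference was 0.15 (SE 0.08, adjusted p = 0.349), with 12.11 to 12.24 in at-risk and 12.15, 12.12 and 11.80 in normal pups. The low value is AF79, and without it the difference was 0.04 (SE 0.05). Between stimulated and naïve DCs its levels overlapped in both groups, and the differences were -0.04 (SE 0.07) in at-risk and 0.07 (SE 0.08) in normal pups, where it was -0.04 without AF79. A second Cd86 probe set had the opposite sign for at-risk minus normal within each set of stimulated DCs. It gave -0.08 in Set 1 and 0.13 in Set 2, not called.

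Icosl encodes the ligand of ICOS, a receptor of activated and follicular helper T cells. Its difference between at-risk and normal pups was 0.02 (SE 0.06) in stimulated DCs, with an interval of -0.11 to 0.15, and 0.02 in each set. Naïve at-risk arrays read 11.86 to 12.14, and naïve normal arrays 11.81, 11.97 and 12.49, where AF79 was the highest. The naïve difference was -0.07 (SE 0.13) with AF79 and 0.13 (SE 0.09) without it, called in neither.

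Cd274 gave the widest difference among the 10 genes in stimulated DCs, and it came from Set 2. PD-L1, its product, is the widely expressed ligand of the inhibitory receptor PD-1. In Set 2 the at-risk arrays AF123 to AF127 read 10.24, 10.69, 11.06, 10.75 and 10.77, and the normal arrays 11.36, 11.24, 11.08 and 11.10. Every at-risk array lay below every normal array, though AF125 only narrowly. The difference was -0.49 (SE 0.14), and its adjusted p of 0.0854 missed the threshold. Without AF123, the lowest, it was -0.38 (SE 0.10, adjusted p = 0.0690), and without AF125, the highest at-risk array, -0.58 (adjusted p = 0.0277), which was called.

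In Set 1 the same comparison of Cd274 went the other way in sign, at 0.08 (SE 0.08), with 10.96 to 11.20 in at-risk and 10.84 to 11.12 in normal pups. The difference between the sets was -0.57 (SE 0.18, adjusted p = 0.122) and was not called. Over both sets Cd274 differed by -0.22 (SE 0.11, adjusted p = 0.322). Naïve DCs averaged 11.17 ± 0.11 in at-risk (SD, n = 4) and 11.18 ± 0.09 in normal pups (SD, n = 3), a difference of -0.01 (SE 0.09).

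Pdcd1lg2 encodes PD-L2, the second ligand of PD-1, which is restricted largely to DCs and macrophages. In Set 2 its at-risk arrays read 7.85, 8.02, 8.10, 7.98 and 8.05, and its normal arrays 8.22, 8.32, 8.23 and 8.26. Again no at-risk array reached a normal one. The difference of -0.26 (SE 0.06) had an adjusted p of 0.0495 and was under 0.32 in size, so it was not called, and without AF123 it was -0.22 (adjusted p = 0.0635). In Set 1 it was -0.01 (SE 0.12), and the difference between the sets was -0.25 (SE 0.11, adjusted p = 0.264).

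Pdcd1lg2 had the only unadjusted p under 0.05 among the 10 genes in naïve DCs, and it rested on AF79. Naïve at-risk arrays read 8.11, 7.95, 7.83 and 7.89, against 8.08, 8.02 and 8.60 on the naïve normal arrays. The difference was -0.29 (SE 0.13, adjusted p = 0.296) with AF79, and -0.11 (SE 0.10) without it.

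Cd274 and Pdcd1lg2 are neighbours on mouse chromosome 19 in GRCm38.p6, at chr19:29362107-29388095 and chr19:29410919-29472927, with 22.8 kb between them. Their promoters, from 250 bases before to 50 bases after the start in the RefSeq table (for Cd274 a start inside the gene span), are shown because these 2 genes were both lower on every at-risk array of Set 2. Neither was called there, where 4.62% of all probe sets were. The share of all probe sets that separated fully between these groups is not given here. The 2 promoters lie at chr19:29367188-29367487 and chr19:29410669-29410968, both on the plus strand, written 5′ to 3′. Capitals mark a match to the kappa B motif.
Cd274: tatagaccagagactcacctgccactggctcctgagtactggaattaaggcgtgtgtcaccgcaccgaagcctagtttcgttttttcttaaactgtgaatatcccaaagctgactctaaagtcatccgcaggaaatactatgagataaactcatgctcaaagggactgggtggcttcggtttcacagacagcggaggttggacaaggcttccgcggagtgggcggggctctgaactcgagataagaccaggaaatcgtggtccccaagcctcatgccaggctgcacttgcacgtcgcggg
Pdcd1lg2: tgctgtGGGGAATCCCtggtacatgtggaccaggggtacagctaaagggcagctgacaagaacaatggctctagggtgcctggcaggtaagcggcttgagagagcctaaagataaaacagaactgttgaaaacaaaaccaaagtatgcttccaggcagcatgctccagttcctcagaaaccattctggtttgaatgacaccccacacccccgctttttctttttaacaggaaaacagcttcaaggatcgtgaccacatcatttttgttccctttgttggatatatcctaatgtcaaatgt
Both strands of each window were searched for the kappa B motif, for the interferon response element (GAAA, 2 bases of any kind, GAAA) and for the AP-1 motif TGANTCA. The Pdcd1lg2 window held 1 kappa B match, from -244 to -235 relative to the start, and no match to the other motifs, and the Cd274 window held none of the 3. The kappa B motif was found in 4.51% of 32841 RefSeq promoters of this length, the interferon response element in 3.44% and TGANTCA in 7.81%. RefSeq promoters were at hand for 5 of the 10 genes. The Cd80 window held 1 AP-1 match, from -42 to -36, and those of Icosl and Fscn1 none of these motifs.

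**Figure D2:**
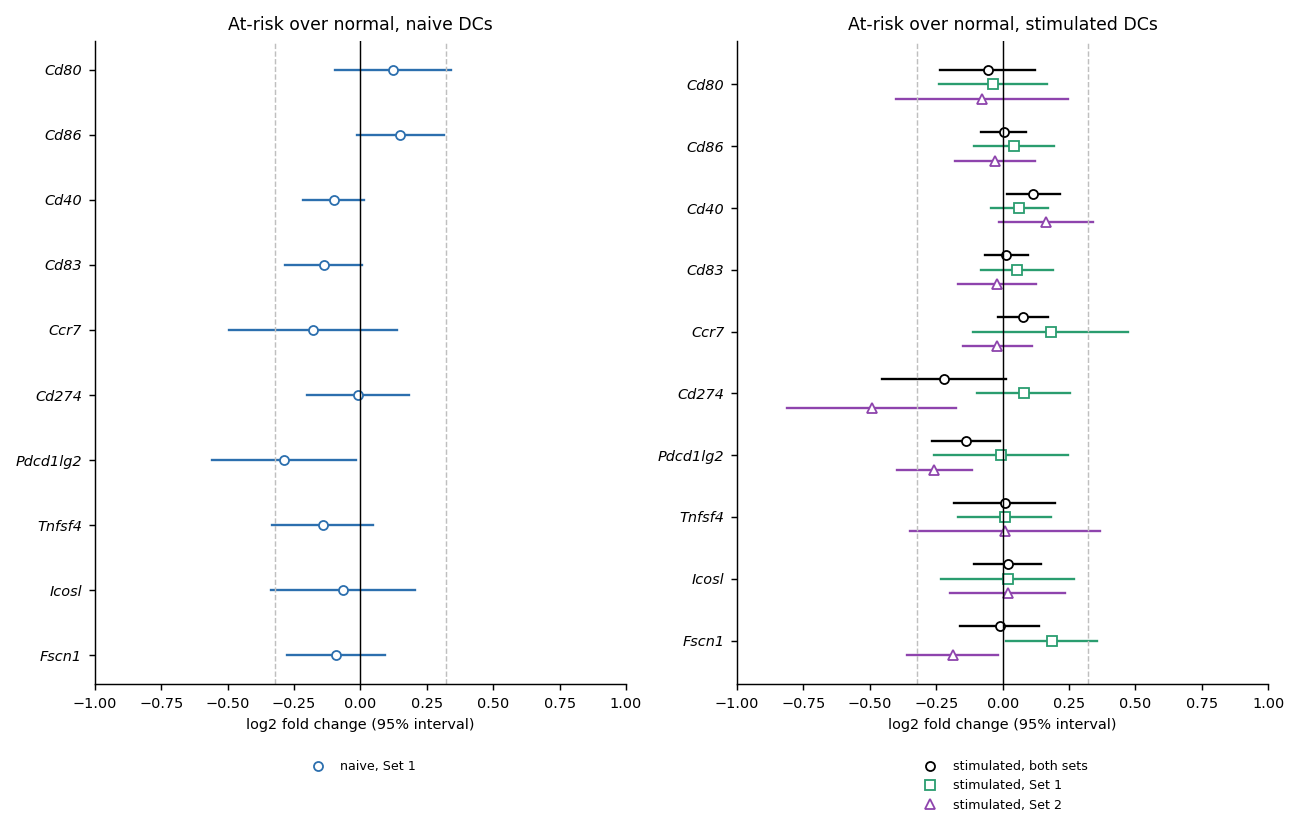
Log2 fold change, at-risk over normal, of each gene in naïve DCs (left) and in stimulated DCs over both sets, in Set 1 and in Set 2 (right), with 95% intervals. Dashed lines mark a difference of 0.32 either way, and no symbol is filled because none was called. Cd274 in Set 2 lies farthest from 0, at -0.49.

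Tnfsf4, which encodes OX40 ligand, read close to the bottom of the scale. Its signal ran from 4.73 to 5.64 over all arrays, where the lower quartile of an array was 5.00 to 5.09, and 1 probe set measured it. Stimulated at-risk DCs of Set 1 read 5.21, 5.30, 5.19 and 5.24, against 4.83, 5.19, 5.00 and 5.16 in naïve at-risk DCs. The difference of 0.19 (SE 0.08, adjusted p = 0.204) was not called, and in normal pups it was 0.04 (SE 0.09). Between at-risk and normal pups the difference was 0.01 (SE 0.09) after stimulation, as in each set alone, and -0.14 (SE 0.09) in naïve DCs.

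Cd40 encodes the receptor through which helper T cells activate DCs. In naïve DCs the at-risk arrays read 11.04, 11.01, 10.96 and 10.94, all below the normal arrays at 11.11, 11.09 and 11.07. The gap was small, at -0.10 (SE 0.05, adjusted p = 0.375). After stimulation the sign turned, with 0.12 (SE 0.05, adjusted p = 0.220) over both sets, 0.06 in Set 1 and 0.16 in Set 2. The second Cd40 probe set gave 0.16 (adjusted p = 0.241) in stimulated DCs and also 0.16 in naïve DCs, where its sign was opposite to that of the main probe set. Without AF79 the naïve differences were -0.11 for both probe sets.

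Between stimulated and naïve DCs, Cd40 differed by 0.02 (SE 0.05) in at-risk pups. In normal pups the stimulated normal arrays read 10.87 to 10.99 and the naïve normal arrays 11.07 to 11.11, without overlap, for a difference of -0.14 (SE 0.05, adjusted p = 0.0938). The second Cd40 probe set overlapped and gave 0.004 (SE 0.17) with all arrays and -0.26 (SE 0.13) without AF79, called in neither. The test of the difference of the maternal effects in Set 1, stimulated minus naïve, gave 0.16 (SE 0.07, adjusted p = 0.579) for Cd40. Its second probe set gave 0.04 (SE 0.23) there. In that test none of the 10 genes was called, against 0.0486% of all probe sets, and an unadjusted p under 0.05 was reached by 2 of the 10, Cd40 and Fscn1, and by 1046 of all 12393 genes. Fscn1 gave 0.279 (SE 0.12), and its other probe sets gave -0.085, 0.089 and -0.098.

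Cd83 encodes a surface marker of mature DCs. Naïve at-risk arrays read 12.41, 12.26, 12.31 and 12.32, against 12.55, 12.55 and 12.29 in naïve normal DCs, with AF79 again the low array. The difference was -0.14 (SE 0.07, adjusted p = 0.336) with AF79 and -0.23 (SE 0.05, adjusted p = 0.132) without it. Stimulated at-risk arrays of Set 1 read 12.43 to 12.51, above all naïve at-risk arrays, a difference of 0.14 (SE 0.06, adjusted p = 0.233). In stimulated DCs Cd83 differed by 0.01 (SE 0.04) between at-risk and normal pups, by 0.05 in Set 1 and by -0.02 in Set 2.

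Ccr7 encodes the receptor that guides mature DCs to the T cell zone, and its differences depended on AF79. In at-risk pups Ccr7 differed by -0.12 (SE 0.14, adjusted p = 0.703) between stimulated and naïve DCs. Without AF79, which adds only to the shared spread here, the SE was 0.06 and the adjusted p 0.189. Stimulated at-risk arrays of Set 1 read 11.17, 11.24, 11.38 and 11.29, and naïve at-risk arrays 11.44, 11.48, 11.32 and 11.34, with overlap. In normal pups, stimulated arrays read 11.05, 11.10, 11.11 and 11.09, and naïve arrays 11.90, 11.79 and 11.03. The naïve arrays AF76 and AF77 stood well above every stimulated array, while AF79 lay below them. With all arrays the log2 signal of Ccr7 fell by 0.48 in stimulated normal DCs (SE 0.15, adjusted p = 0.0404). Without AF79 it fell by 0.76 (SE 0.07, adjusted p = 1.46e-05), and 11.3% of all probe sets were called. The call with all arrays was lost when any of 11 of the 15 arrays was left out, and with only the groups compared in the fit (adjusted p = 0.177).

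Among naïve DCs the at-risk values of Ccr7 lay below AF76 and AF77 and above AF79. The naïve difference, at-risk minus normal, was -0.18 (SE 0.15, adjusted p = 0.574) with AF79. Without it Ccr7 was the single member called, at -0.45 (SE 0.07, adjusted p = 0.0201), where 0.208% of all probe sets were called.

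After stimulation the order turned. All stimulated at-risk arrays of Set 1 lay above the stimulated normal ones, at 11.17 to 11.38 against 11.05 to 11.11, although the difference of 0.18 (SE 0.14, adjusted p = 0.882) was not called. AF79 enters this comparison only through the spread shared by Set 1. Without AF79 the difference of 0.18 had an SE of 0.06 and an adjusted p of 0.238, not called. In Set 2 the difference was -0.02 (SE 0.06), with 11.13 to 11.29 in at-risk and 11.15 to 11.26 in normal DCs. The difference of the maternal effects was 0.36 (SE 0.20, adjusted p = 0.660) with all arrays and 0.63 (SE 0.09, adjusted p = 0.0276) without AF79, when 0.0442% of all probe sets were called. The difference between the sets was -0.20 (SE 0.08, adjusted p = 0.211).

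**Figure D3:**
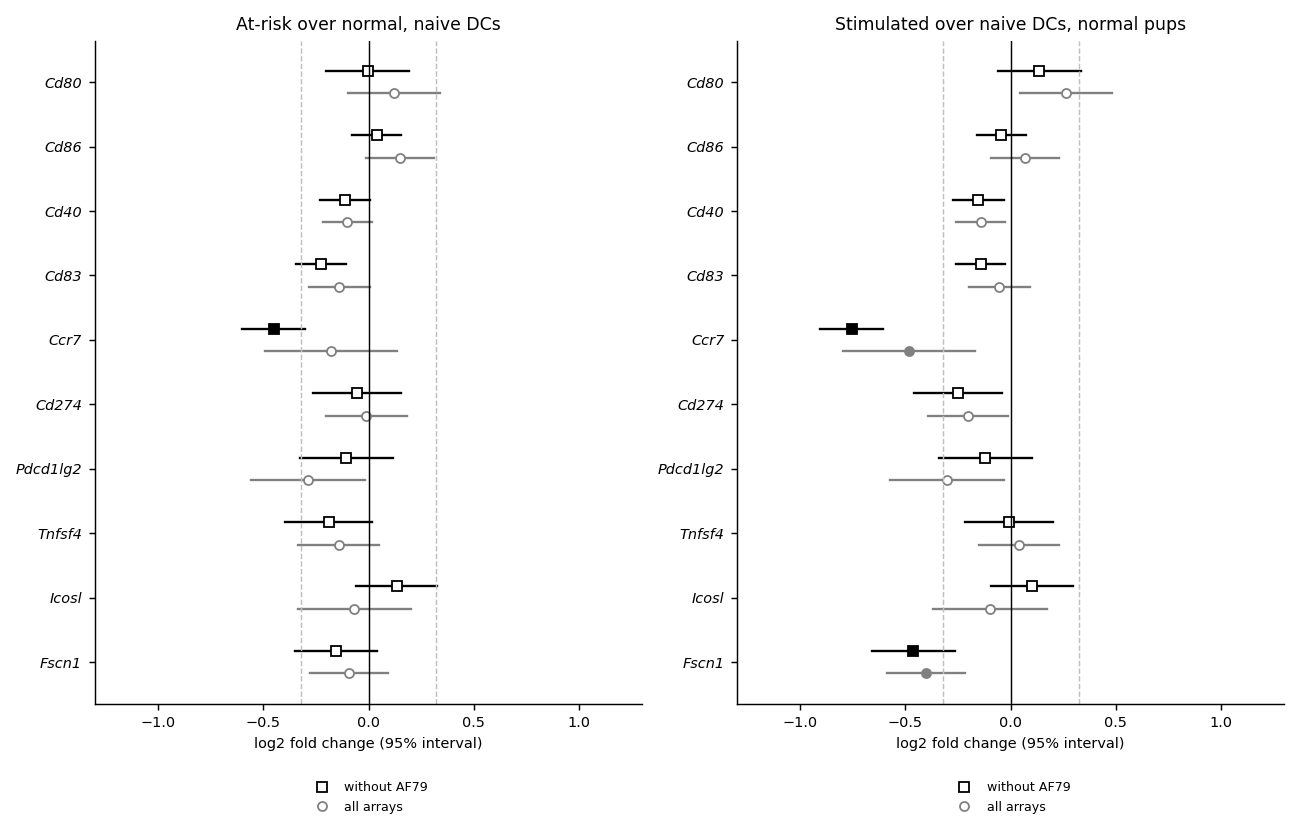
Log2 fold change of each gene with 95% intervals, without AF79 (squares) and with all arrays (circles), for at-risk over normal in naïve DCs (left) and stimulated over naïve in normal pups (right). Filled symbols were called and dashed lines mark a difference of 0.32 either way. Ccr7 in naïve DCs was called only without AF79, at -0.45, and Ccr7 and Fscn1 in normal pups were called both ways.

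Fscn1, which encodes fascin, was the second member to fall with stimulation in normal pups. In at-risk pups the difference was -0.12 (SE 0.08), with 12.25 to 12.62 in stimulated and 12.52 to 12.61 in naïve DCs. The stimulated normal arrays read 12.18, 12.26, 12.28 and 12.29, against 12.84, 12.59 and 12.53 on the naïve normal arrays, without overlap. The fall was 0.40 in log2 units, at -0.40 (SE 0.09, adjusted p = 0.00593). Without AF76, the highest naïve array, the difference was -0.31 (adjusted p = 0.0311), under 0.32 in size and so not called, and without AF79 it was -0.46 (adjusted p = 0.00375). The other 3 Fscn1 probe sets differed by -0.06, -0.16 and 0.03 with all arrays and none was called. Without AF79 they were -0.12, -0.61 and 0.02, and the probe set at -0.61 (adjusted p = 0.0469) was called lower as well.

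The Fscn1 promoter is shown because this gene carried the firmer of the 2 calls. It lies at chr5:142960105-142960404 of GRCm38.p6 on the plus strand, from RefSeq, and is in lower case throughout as none of the 3 motifs matched.
Fscn1: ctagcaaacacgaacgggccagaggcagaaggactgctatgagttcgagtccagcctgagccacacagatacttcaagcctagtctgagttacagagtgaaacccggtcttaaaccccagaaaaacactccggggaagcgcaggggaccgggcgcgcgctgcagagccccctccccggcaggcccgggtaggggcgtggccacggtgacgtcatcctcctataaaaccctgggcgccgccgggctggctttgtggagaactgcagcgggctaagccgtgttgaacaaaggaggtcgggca
After stimulation Fscn1 differed in sign between the sets. At-risk minus normal was 0.19 (SE 0.08, adjusted p = 0.620) in Set 1 and -0.19 (SE 0.08, adjusted p = 0.194) in Set 2, where the arrays read 12.03 to 12.34 in at-risk and 12.32 to 12.50 in normal DCs. The difference between the sets was -0.37 (SE 0.11, adjusted p = 0.101). A second Fscn1 probe set, of lower signal, gave 0.35 in Set 1 and -0.60 in Set 2, where its at-risk arrays read 6.61 to 7.86 and its normal arrays 7.88 to 8.17, and the difference between the sets was -0.95 (adjusted p = 0.111). Without AF123 its values were -0.41 in Set 2 and -0.75 for the difference between the sets, not called. The other 2 probe sets of Fscn1 had -0.09 and 0.002 in Set 1, -0.12 and -0.17 in Set 2, and -0.03 and -0.17 for the difference between the sets, so the sign change was not shared by all 4.

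Within each set, none of the 10 genes was called in stimulated DCs. In Set 1 this stood beside 0.0707% of all probe sets, and in Set 2 beside 4.62%. The median of the 10 differences was 0.05 in Set 1, with -0.01 over all genes, and -0.025 in Set 2, with 0.015 over all genes. An unadjusted p under 0.05 was reached by 1 gene in Set 1, Fscn1, beside 905 of all 12393 genes, and by 3 in Set 2, Cd274, Pdcd1lg2 and Fscn1, beside 2976 of the 12393. In the test of the difference between the sets none was called, against 1.79% of all probe sets, and 4 had an unadjusted p under 0.05, Ccr7, Cd274, Pdcd1lg2 and Fscn1, all negative, beside 2180 of the 12393.

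Markers of other cells moved with the Set 2 comparison. In Set 2 the summed signal of 5 plasmacytoid DC markers was 9721 to 13055 in at-risk and 15868 to 17181 in normal pups, with 4 of the 5 called lower. For 7 NK cell markers the sums were 5637 to 7864 in at-risk and 10907 to 11570 in normal pups (6 lower), and for 10 macrophage markers 38649 to 46899 in at-risk and 53483 to 56730 in normal pups (2 lower). Platelet markers ran from 2655 to 6769 in at-risk and from 897 to 1125 in normal pups (8 of 8 higher), and B cell markers from 29385 to 32150 in at-risk and from 23642 to 24957 in normal pups (4 of 9 higher). Endothelial and stromal markers summed to 3454 to 5612 in at-risk and 1983 to 2466 in normal pups (7 of 11 higher), erythroid markers to 9601 to 24730 in at-risk and 6690 to 6822 in normal pups (2 of 6 higher), and T cell markers to 3802 to 5554 in at-risk and 6201 to 6581 in normal pups (5 of 9 lower). Their part in the values of Cd274, Pdcd1lg2 and Fscn1 was not tested.

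**Figure D4:**
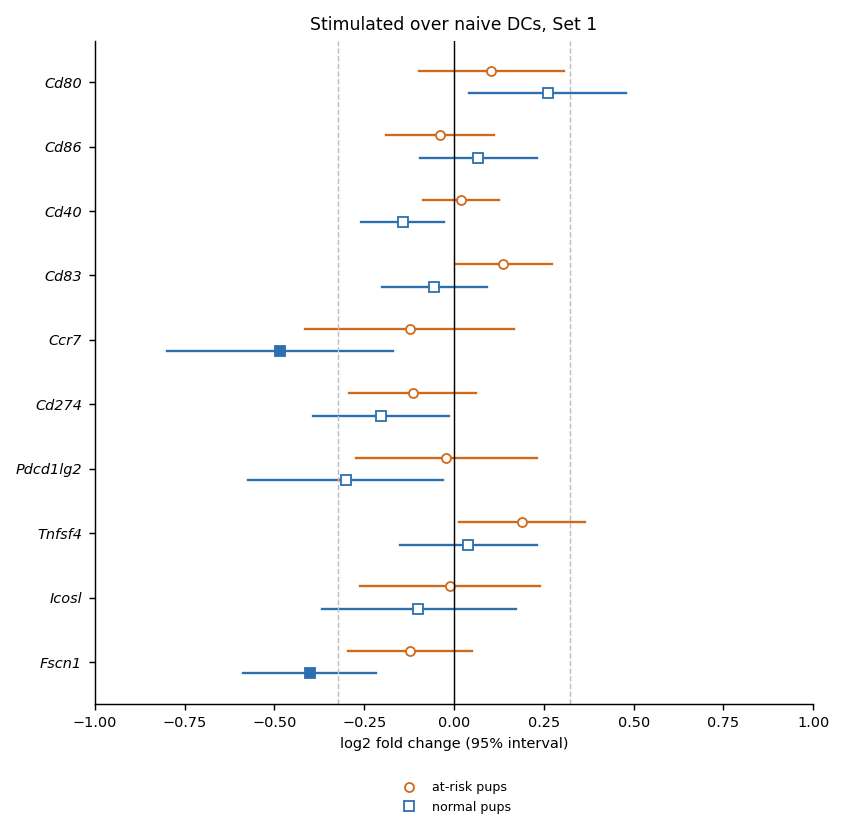
Log2 fold change, stimulated over naïve, of each gene in at-risk (circles) and normal pups (squares) of Set 1, with 95% intervals. Filled symbols were called and dashed lines mark a difference of 0.32 either way. Ccr7 at -0.48 and Fscn1 at -0.40 in normal pups are the calls.

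Over the 10 genes the allergen difference had a median of -0.02 in at-risk pups (all genes -0.01) and of -0.12 in normal pups (all genes -0.003). In normal pups 6 of the 10 had an unadjusted p under 0.05, as did 3489 of all 12393 genes. Besides Ccr7, Fscn1, Cd80 and Cd40 these were Cd274, at -0.20 (SE 0.09, adjusted p = 0.150), and Pdcd1lg2, at -0.30 (SE 0.13, adjusted p = 0.134), which was -0.12 (SE 0.10) without AF79. Markers of other cells moved here too. The 9 T cell markers, all called lower, summed to 4095 to 7445 in stimulated and 10138 to 10539 in naïve normal DCs, and the 10 macrophage markers, 6 of them lower, to 35037 to 39578 in stimulated and 48007 to 55360 in naïve normal DCs. The 8 platelet markers, all called higher, summed to 9136 to 12268 in stimulated and 567 to 644 in naïve normal DCs. The 7 NK cell markers, 5 of them lower, summed to 6839 to 15106 in stimulated and 16808 to 17913 in naïve normal DCs, and the 8 neutrophil markers, 5 lower and 1 higher, to 36052 to 42557 in stimulated and 55717 to 62822 in naïve normal DCs. The 6 erythroid markers, 5 of them higher, summed to 9427 to 11352 in stimulated and 4772 to 6074 in naïve normal DCs. The 16 conventional DC markers, 3 of them higher, summed to 101699 to 105793 in stimulated and 98095 to 98808 in naïve normal DCs. The part of any of these cells in the falls of Ccr7 and Fscn1 was not tested.

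The T cell partners of these proteins were also measured on the DC arrays, and several passed the test. Cd28 and Ctla4 encode the receptors of CD80 and CD86, Icos that of ICOS ligand, Pdcd1 PD-1, Tnfrsf4 OX40 and Cd40lg the ligand of CD40. With stimulation 3 of these 6 genes fell in at-risk pups, Ctla4 at -1.70 (SE 0.10, adjusted p = 4.96e-08), Cd28 at -0.87 and Icos at -0.43, where 7.88% of all probe sets were called. In normal pups 5 of the 6 fell, with Ctla4 at -2.13 (SE 0.11, adjusted p = 1.47e-08), Cd28 at -0.92, Pdcd1 at -0.50, Icos at -0.44 and Tnfrsf4 at -0.38, where 5.76% of all probe sets were called lower. Leaving out single arrays lost the call of Icos in 6 of 15 fits in at-risk pups, and in normal pups those of Tnfrsf4 in 10 and of Icos and Pdcd1 in 5 each. A second probe set of Icos was called in neither. Cd40lg was called in none of these comparisons.

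Between at-risk and normal pups some of the same receptors were called. In naïve DCs Ctla4 was 7.55 to 7.98 in at-risk and 8.46 to 8.75 in normal pups, a difference of -0.73 (SE 0.11, adjusted p = 0.00903). It was the single call among the 6, where 0.340% of all probe sets were called. In stimulated DCs, where 1.73% of all probe sets were called, Cd28 was lower by -0.84 (SE 0.12, adjusted p = 0.00310) and Ctla4 by -0.52 (SE 0.12, adjusted p = 0.0284). Both probe sets of Cd28 were called. The Ctla4 call was lost when any of 4 of the 17 arrays was left out, and Ctla4 was called in neither set alone, at -0.31 in Set 1 and -0.70 in Set 2. In Set 2 Cd28 read 7.37 to 7.80 in at-risk and 8.58 to 8.86 in normal DCs, a difference of -1.15 (SE 0.11, adjusted p = 0.000431). In Set 1 its difference of -0.49 (adjusted p = 0.243) was not called.

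**Figure D5:**
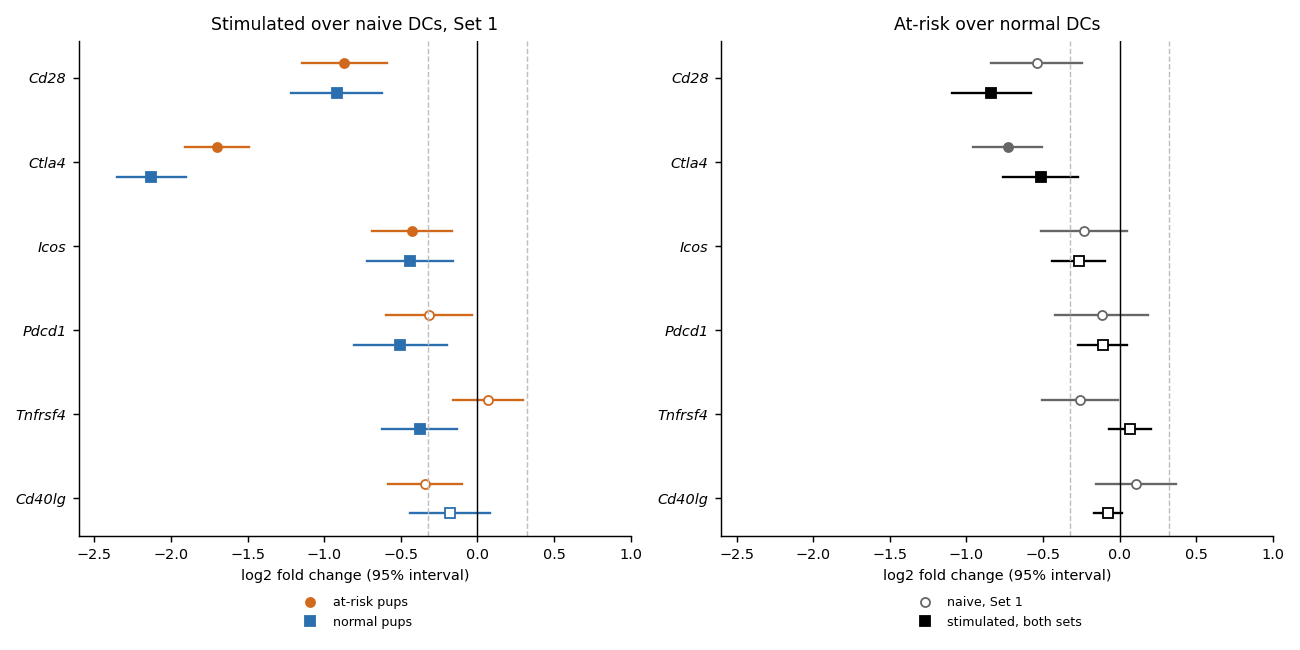
Log2 fold change of 6 T cell genes that encode the partners of the DC ligands, with 95% intervals, for stimulated over naïve in Set 1 (left) and at-risk over normal (right). Filled symbols were called and dashed lines mark a difference of 0.32 either way. Ctla4 lies farthest from 0, at -1.70 in at-risk and -2.13 in normal pups.

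The summed T cell markers moved in the same direction as these receptors. They ran from 4547 to 4865 in stimulated and from 8508 to 8906 in naïve at-risk DCs, with 7 of 9 called lower, and among the naïve arrays the at-risk sums lay below the normal ones, at 10138 to 10539, with no marker called. The purified cells were over 95% positive for CD11c and MHC-II by the study's methods. Whether the receptor transcripts came from T cells in the preparation was not tested.

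Other ligands of the same kind were measured for 14 of 19 listed genes. Slamf1, a self-binding receptor of DCs, T cells and platelets, rose with stimulation by 1.90 (SE 0.20, adjusted p = 1.56e-05) in at-risk and by 1.21 (SE 0.21, adjusted p = 0.00138) in normal pups, and was 0.65 (SE 0.13, adjusted p = 0.0189) higher in at-risk than in normal stimulated DCs. It differed by 0.28 (adjusted p = 0.860) in Set 1 and by 0.97 (adjusted p = 0.000268) in Set 2, the difference between the sets was 0.69 (SE 0.21, adjusted p = 0.116), and the call over both sets was lost without AF119 (adjusted p = 0.0570). All 8 platelet markers were called higher with stimulation, in at-risk and in normal pups. Between at-risk and normal stimulated DCs their median difference was 2.12 in Set 2 (all called) and 0.28 in Set 1 (none called). Their part in the values of Slamf1 was not tested. Nectin2, a ligand of TIGIT and CD226, rose with stimulation in at-risk pups by 0.61 (SE 0.15, adjusted p = 0.0179), and was 0.49 higher in at-risk stimulated DCs (SE 0.12, adjusted p = 0.0426), a call lost when any of 12 of the 17 arrays was left out, with 0.35 in Set 1 and 0.63 in Set 2, called in neither. The Nectin2 call in at-risk pups was lost in 4 of 15 such fits. These 2 were the calls among the 14 in stimulated DCs, beside 1.73% of all probe sets, and in the allergen comparison of at-risk pups, beside 7.88%. None was called in naïve DCs, where 0.340% of all probe sets were. In normal pups, beside 11.5% of all probe sets, 2 rose (Slamf1 and Tnfsf14) and 2 fell (Tnfsf9 and Pvr). Of these, the Tnfsf14 call was lost when any of 12 of the 15 arrays was left out, and that of Pvr without AF87 (adjusted p = 0.0581). Tnfsf9, the ligand of 4-1BB, fell by 0.58 (SE 0.10, adjusted p = 0.00158) with stimulation in normal pups. In Set 2 it was -0.83 (SE 0.10, adjusted p = 0.00145) in at-risk against normal DCs, and the difference between the sets was -0.92 (SE 0.15, adjusted p = 0.00456).

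Among 30 measured of 32 other genes of mature DCs, 3 fell with stimulation in at-risk pups and 9 in normal pups, and none rose, where 7.88% of all probe sets were called in at-risk pups and 11.5% in normal pups, 5.76% as lower. Their median difference was -0.035 in at-risk pups (all genes -0.01) and -0.28 in normal pups (all genes -0.003). Anxa3, an annexin, fell by 0.80 (SE 0.08, adjusted p = 8.47e-06) in normal pups, and Socs2, a suppressor of cytokine signaling, by 0.64 (SE 0.07, adjusted p = 2.51e-05). Socs2 was also the 1 gene of the list called in naïve DCs, where 0.340% of all probe sets were called. Its difference was -0.53 (SE 0.07, adjusted p = 0.00480), with 10.33 to 10.46 in at-risk and 10.84 to 10.99 in normal pups. Its level after stimulation in Set 1 was 10.29 to 10.46 in at-risk and 10.19 to 10.37 in normal pups. The difference of the maternal effects was called for Anxa3, at 0.70 (SE 0.10, adjusted p = 0.0311), and for Socs2, at 0.62 (SE 0.10, adjusted p = 0.0311), beside 0.0486% of all probe sets. Leaving out single arrays lost these calls in 10 and 11 of 15 fits. In the same test all 8 neutrophil markers had positive differences, with a median of 0.82, and 1 was called higher. The part of other cells in the values of Anxa3 and Socs2 was not tested.

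In Set 2, 6 of the 30 genes were lower in at-risk DCs, where 4.62% of all probe sets were called, among them Tnfrsf9 at -0.57 (SE 0.08, adjusted p = 0.00445) and Ccl5 at -0.38 (SE 0.06, adjusted p = 0.00552), which encode 4-1BB and a T cell chemokine. Those 2 kept the call with each array left out, while Socs2 lost it in 8 of 9 fits, Samsn1 in 7, Cd44 in 6 and Stat4 in 4. The difference between the sets was called for 4 of the 30, all negative, Tnfrsf9 at -0.78, Ccl5 at -0.48, Samsn1 at -0.47 and Socs2 at -0.44, beside 1.79% of all probe sets, and the last 3 lost the call in 10 to 12 of 17 such fits. In the Set 2 comparison 6 of 7 NK cell markers and 5 of 9 T cell markers were called lower too. The part of these cells in the values of the 6 genes was not tested. Of 16 measured of 19 CD40 signaling genes, 2 fell with stimulation in at-risk pups and 4 in normal pups, again beside 7.88% and 5.76% of all probe sets (in at-risk pups in either direction, in normal pups lower), and none was called between at-risk and normal DCs. Rel, an NF-kB subunit active in DC maturation, fell by 0.62 (SE 0.15, adjusted p = 0.0166) in at-risk and by 1.18 (SE 0.17, adjusted p = 0.000227) in normal pups. Tnfaip3, which encodes the NF-kB inhibitor A20 and stands in both lists, fell by 1.07 (SE 0.25, adjusted p = 0.0111) in at-risk and by 1.09 (SE 0.27, adjusted p = 0.0131) in normal pups. Leaving out single arrays lost the Rel call in at-risk pups in 3 of 15 fits, and the Tnfaip3 call in normal pups in 2. Of a list on CCR7 ligands and surface turnover 1 gene of 9 was measured, Cd72, which is itself not a ligand of CCR7. It was 0.36 higher (SE 0.05, adjusted p = 0.00310) in at-risk than in normal stimulated DCs, with 0.28 (not called) in Set 1 and 0.44 (called) in Set 2. In the same comparison over both sets all 9 B cell markers had positive differences, and 2 were called higher. Their part in the value of Cd72 was not tested.

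The 10 genes did not vary as 1 unit. After each set was centred on its mean, the 45 pairs of genes had a median correlation of 0.11 over the 24 arrays, from -0.59 for Cd86 with Icosl to 0.66 for Ccr7 with Fscn1, and 33 of the pairs were above 0. Within the sets Ccr7 and Fscn1 had 0.77 in Set 1 and -0.01 in Set 2, and Cd86 and Icosl -0.72 in Set 1 and -0.28 in Set 2. The arrays of a pair of genes share RNA and groups, so these are descriptions. Fscn1 followed the mean of the other 9 genes most closely (r = 0.59) and Icosl least (r = -0.11). Outside the family, the 5 genes whose signal was most like the mean of the standardized members were Hivep2 (r = 0.76), Tgif1 (r = 0.76), Smap2 (r = 0.74), Gsx2 (r = 0.74) and Cryaa (r = 0.73). Without AF123 and AF76, the arrays farthest from the median of that mean, these were 0.54, 0.59, 0.55, 0.60 and 0.66. Gsx2 and Cryaa read close to the bottom of the scale, with means of 3.83 and 5.08, where the lower quartile of an array was 5.00 to 5.09.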

How the data were processed

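Gene expression was measured on 24 arrays in 6 groups. The authors preprocessed the sets separately with quantile normalization and median polish (RMA). The version was not given in the sources used here. Each probe set has a linear intensity in the table the authors deposited. The study's methods name a RefSeq-based probe set definition, whereas the deposited table holds Affymetrix probe sets. The set of an array follows from its number. Of 22690 probe sets, 64 controls were left out. Log2 was taken of the deposited intensity with no pseudocount. Detection calls were not used here, and the number of arrays limits the precision.

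Probe sets were named from the platform annotation where it gave 1 symbol (20380; 691 had several and 1555 none). A gene was represented by its probe set of highest mean. limma 3.58.1 in R 4.3.3 (lmFit, eBayes) was fitted with a mean for each group to the 15 arrays of Set 1 and to the 9 of Set 2, or to the 17 stimulated arrays with set as a term or its interaction. Named were all members, all measured T cell receptors, at most 4 calls of each other list per comparison, and 5 genes by likeness. The members and lists were chosen with earlier results of these data known. Alternatives were all 24 arrays, only the groups compared, no set term or set as a random block, each set alone, quantile normalization, leaving out the dimmest 40% of probe sets, trend and robust, array weights, no fold threshold, any probe set, and each array left out. The fits were tested on simulated data. Figures were drawn with matplotlib 3.10.9 in Python 3.11.15.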

Additional observations from a re-analysis of the deposited data

Results flagged for a closer look

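In 2 of 50 groups of 4 or 5 arrays, 1 array of a member lay far from the others by Dixon's test, which chance gives in about 1 in 20 groups. Cd86 read 12.11 (12.111) on the stimulated at-risk array AF89 of Set 1, where the other 3 read 12.138 to 12.143, a gap that is narrow in absolute terms. Cd83 read 12.25 on the stimulated at-risk array AF123 of Set 2, where the other 4 read 12.432 to 12.469. The naïve normal group, with 3 arrays, was not tested in this way.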

How the results depend on the processing

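The count of members called between at-risk and normal pups in naïve DCs was 0 under all alternatives run but 1: leaving out single arrays gave 0 to 1, with 1 (Ccr7) without AF79. In Set 2 the count of 0 became 1 (Cd274) with array weights, and 1 (Pdcd1lg2) with no fold threshold, and ran from 0 to 1 with single arrays left out, with 1 (Cd274) without AF125. In stimulated DCs of both sets, in Set 1 and for the allergen in at-risk pups it was 0 under all alternatives run. For the allergen in normal pups the count of 2 became 1 (Fscn1) with only the groups compared, and ran from 0 to 2 with single arrays left out, with 0 without AF76. For the difference of the maternal effects the count of 0 ran from 0 to 1, with 1 (Ccr7) without AF79. For the difference between the sets it became 2 (Cd274 and Fscn1) with array weights, and ran from 0 to 1, with 1 without AF88 (Fscn1) and 1 without AF125 (Cd274). The cause of these changes was not tested, beyond the arrays left out.

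Of 1692 values of single members under alternatives, 1631 either kept a call, however far they moved, or stayed uncalled and moved by no more than 1 SE. A further 39 moved by more than 1 SE with no call, 13 lost a call and 9 gained one. No called value changed sign, and 100 values that were called in neither fit did. No paired analysis was possible because the labels give no replicate number shared between groups. With 3 to 5 arrays a group, and Tnfsf4 near the lower quartile of signal, small differences could not be resolved. The stimulated comparison mixes sets that differ in amplification.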
